A study of Mus musculus with 47 samples.

Results

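The transcripts of 2 stress-induced hormones, Fgf21 and Gdf15, were described together with those of the FGF21 receptor complex, Klb, Fgfr1, Fgfr2, Fgfr3 and Fgfr4. These 7 genes were taken by symbol from the 26583 symbols held by all 4 deposited count tables, and all 7 were found in each table. The groups were methionine-restricted (MR) and control (CON) male C57BL/6J mice, 5 weeks old at the start, given free access to their diet over 11 weeks, kept at 23 C, with food withdrawn 5 h before tissues were taken. The same 12 mice gave a white fat depot, inguinal (IWAT), a brown fat depot, interscapular (BAT), and also liver and gastrocnemius muscle. There were 6 MR and 6 CON libraries per tissue, except that gastrocnemius had 5 MR libraries, and the muscle of mouse MR3113 was not analysed here. The labels name no transgene or deletion in any group. The libraries were SAGE libraries, in which a transcript gives 1 short tag near its 3′ end, so that counts do not scale with transcript length. Levels are given as CPM, tags relative to the library total. Each animal is 1 replicate, named by diet and number.

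FGF21 is a hormone that liver secretes and that acts on adipose tissue and brain. It binds an FGF receptor only together with the membrane co-receptor β-Klotho, encoded by Klb, and the FGFR1c form is its main receptor partner in fat. GDF15 is a distant member of the TGF-β family that acts through the receptor GFRAL and its signalling partner RET in the hindbrain. Both genes are known targets of the integrated stress response, in which amino acid shortage, sensed by the kinase GCN2, leads to translation of the transcription factor ATF4.

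In liver both hormone genes were higher in MR mice, so their promoters are shown first. Fgf21 (gene ID 56636) lies on chromosome 7, 45613890 to 45615490, and Gdf15 (gene ID 23886) on chromosome 8, 70629393 to 70632470, on the GRCm38.p6 build of RefSeq. The windows are the 250 bases before a RefSeq start on the minus strand, chr7:45615491-45615740 for Fgf21 and chr8:70632457-70632706 for Gdf15. Capitals mark matches to the motifs searched on both strands, and matches describe letters only.
Fgf21 promoter: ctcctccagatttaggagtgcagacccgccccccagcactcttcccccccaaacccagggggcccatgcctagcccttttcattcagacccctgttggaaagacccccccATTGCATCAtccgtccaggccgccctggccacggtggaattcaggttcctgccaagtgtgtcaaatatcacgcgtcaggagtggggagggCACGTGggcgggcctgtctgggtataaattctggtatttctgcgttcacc
Gdf15 promoter: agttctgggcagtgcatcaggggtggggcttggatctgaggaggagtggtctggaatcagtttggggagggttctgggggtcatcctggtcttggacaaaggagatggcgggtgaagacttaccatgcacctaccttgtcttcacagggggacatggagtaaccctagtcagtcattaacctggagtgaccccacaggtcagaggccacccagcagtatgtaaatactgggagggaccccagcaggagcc
The motifs were the C/EBP-ATF response element TGATGCAAT, its core TGATGNAA and the E-box CACGTG. The Fgf21 window held the C/EBP-ATF response element on the opposite strand, read here as ATTGCATCA, 140 to 132 bases before the start; its last 8 bases are also the core. Of 32851 RefSeq promoter windows that reached 50 bases further, past the start, 0.192% held the response element, 3.97% the core and 7.15% the E-box. An E-box lay 50 to 45 bases before the Fgf21 start. The Gdf15 window printed above held none of these motifs, and a second Gdf15 start (window chr8:70632096-70632345) had an E-box 83 to 78 bases upstream. RefSeq promoter entries matched 6 of the 7 genes, all but Fgfr1.
The tags of the hormones, shown because such tags are what the counts rest on, begin at the CATG site nearest the 3′ end of the transcript (capitals) and were read from GENCODE transcripts.
Fgf21 tag: CATGgtagagcctttacagggccgaag
Gdf15 tag: CATGgcctgcagcctgacaaggtgcct
Both lie in coding sequence, and each matched 1 gene only.

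Library totals ran from 4887004 tags in IWAT to 13117537 in BAT. The limit that no tag at all still allows, counting error alone, was 0.229 to 0.614 CPM across libraries. By group median, hepatocyte markers were highest in liver, brown adipocyte markers in BAT and skeletal muscle markers in gastrocnemius. Hepatocyte markers summed to 89770 to 179100 CPM in MR livers and 132200 to 215600 CPM in CON livers. Brown adipocyte markers summed to 5028 to 9293 CPM in MR BAT and 3941 to 6637 CPM in CON BAT. They reached 4219 CPM in IWAT of MR3101, inside the range of CON BAT. Some fat libraries also held markers of other tissues or cells. Hepatocyte markers summed to 11060 CPM in IWAT of CON3103, 7975 CPM in IWAT of MR3113 and 3605 CPM in BAT of CON3106. Those of skeletal muscle reached 15710 CPM in BAT of CON3112 and 8791 CPM in BAT of CON3114. Lymphocyte markers reached 2463 CPM in IWAT of CON3107, and 1097, 1077 and 839 CPM in IWAT of MR3102, MR3104 and MR3113. The median of their sum in IWAT was 443 CPM in MR and 12.4 CPM in CON. The part of these other tissues and cells in the fat values was not tested. Skeletal muscle markers summed to 10660 CPM in gastrocnemius of MR3101, against 85110 CPM or more in the CON libraries. That library had a median Spearman correlation of 0.656 with the other muscle libraries. In IWAT, the libraries of MR3116, CON3106 and CON3115 stood apart in the same way, at 0.730, 0.711 and 0.792. In bulk tissue, fewer cells of a type and less RNA per cell cannot be told apart.

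Fgf21 rose in MR livers. It had 11.2 CPM in the lowest MR liver, a median of 20.8 and 25.9 CPM in the highest, against a lowest value of 2.55, a median of 3.19 and a highest value of 13.2 CPM in CON livers. All MR livers but that of MR3104 lay above every CON liver, and the ranges overlapped through CON3107 alone, whose 13.2 CPM stood above 6.23 CPM in the next CON liver. The mean was 19.5 ± 5.64 CPM in MR livers and 5.20 ± 4.12 CPM in CON livers (SD, n = 6 each). The log2 fold change was 1.76 ± 0.35 (SE), a 3.38-fold higher level, with an edgeR quasi-likelihood adjusted p of 0.0132 over all genes tested. The call held without any single liver, at log2 fold changes of 1.61 to 2.22. In a joint fit of all 47 libraries it was lost (1.74, edgeR adjusted p = 0.181), and 29 liver genes were then called, against 248 in the fit of liver alone.

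Gdf15 also rose in MR livers, by a smaller amount. Its level was 5.31 CPM in the lowest MR liver, 13.2 at the median and 15.8 CPM in the highest, against 3.99, 6.01 and 6.27 CPM in CON livers. The liver of MR3101 lay inside the CON range, and the other 5 MR livers lay above every CON liver. The mean was 12.4 ± 3.90 CPM in MR livers and 5.51 ± 0.976 CPM in CON livers (SD, n = 6 each). The log2 fold change was 1.01 ± 0.23 (SE), a 2.01-fold higher level, and the edgeR quasi-likelihood adjusted p was 0.0329. This call was less stable: it was lost when any single liver other than that of MR3101 or CON3115 was left out (log2 fold change 0.90 to 1.17 over all 12 omissions). Among the 10 omissions that ended it, the edgeR adjusted p was at most 0.0841. The joint fit of all libraries gave 0.99 and also lost the call (edgeR adjusted p = 1.00).

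Thus 2 of the 7 genes were called higher in liver and none lower, where 1.05% of the 10969 genes tested were called higher and 1.21% lower. Across all genes tested in liver the median log2 fold change was 0.010. The plot of hormone tags by tissue and diet shows how far liver stood from the other tissues.

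**Figure D1:**
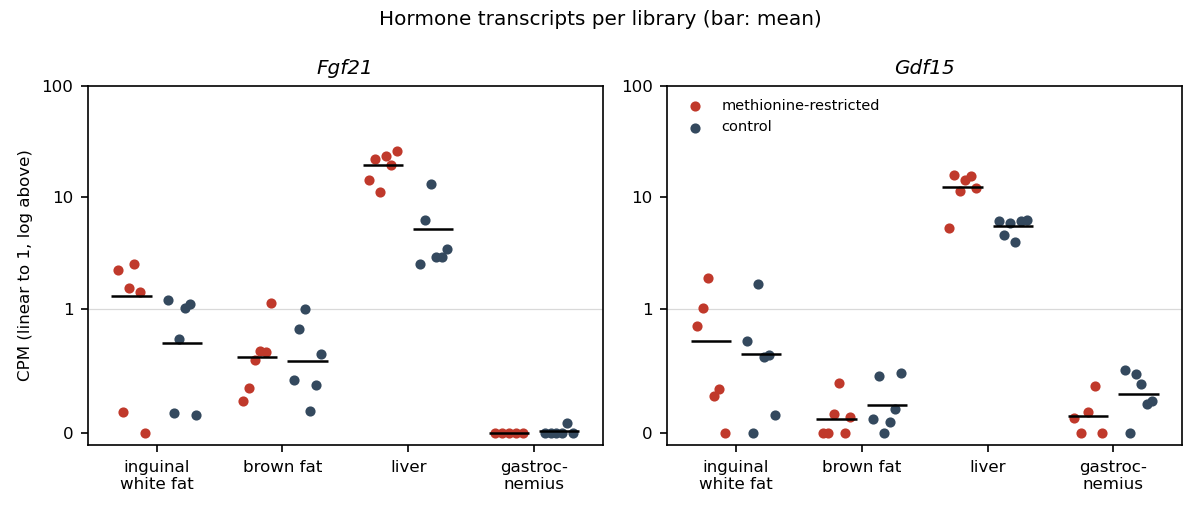
Fgf21 and Gdf15 CPM in each library (points; y axis linear up to 1 CPM and logarithmic above) by tissue, with MR left of CON in each tissue and the group mean as a bar. The MR livers reach 25.9 CPM for Fgf21 and 15.8 CPM for Gdf15, and the other tissues stay at or below 2.51 CPM for both genes.

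Outside liver, hormone tags were few, and neither gene passed the filter on low counts in any of the other 3 tissues. In IWAT, Fgf21 had 47 tags over all MR libraries and 27 over all CON libraries, at 0 to 2.51 CPM in MR (median 1.47) and 0.141 to 1.19 CPM in CON (median 0.890). Of the MR libraries, 4 lay above every CON library and 1, at 0, lay below them all. Without the filter the IWAT log2 fold change was 0.95 ± 0.78 (SE), with an edgeR quasi-likelihood adjusted p of 0.857. In BAT, Fgf21 had 28 MR tags and 31 CON tags, with levels of 0.252 to 1.13 CPM in MR and 0.178 to 1.01 CPM in CON. In gastrocnemius Fgf21 had no tag in any of the 5 MR libraries and 1 tag in all CON libraries, so no fold is given. A difference in muscle Fgf21 was not detectable at this depth.

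Gdf15 in IWAT had 25 MR tags and 24 CON tags, with 0 to 1.91 CPM in MR and 0 to 1.67 CPM in CON. In BAT it had 5 MR tags and 12 CON tags, and in gastrocnemius 7 MR tags and 19 CON tags, with 0.507 CPM the highest muscle value, in a CON library. The diets overlapped for Gdf15 in each of these tissues.

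Whether the hormones responded differently by tissue was tested as an interaction of tissue and diet over all 47 libraries. Neither gene passed (edgeR quasi-likelihood adjusted p = 0.510 for Fgf21 and 0.436 for Gdf15), in a fit where 0.524% of 13541 genes did. The difference of the log2 fold changes, BAT minus liver, was -1.54 ± 0.75 (SE) for Fgf21 and -1.77 ± 0.96 for Gdf15. A diet response confined to liver was therefore not shown by this test. The 5 receptor genes had interaction adjusted p-values of 0.549 to 0.979.

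Among control mice the hormones differed in level between tissues. The CPM means are per library total, whereas the log2 differences between tissues, here and below, use TMM scaling. Fgf21 averaged 5.20 ± 4.12 CPM in liver, 0.728 ± 0.471 in IWAT, 0.578 ± 0.309 in BAT and 0.0130 ± 0.0318 CPM in gastrocnemius (SD, n = 6 each). Liver exceeded IWAT (log2 difference of 3.60 ± 0.55, edgeR adjusted p = 5.57e-07), IWAT and BAT did not differ beyond their spread (adjusted p = 0.991), and BAT exceeded gastrocnemius (adjusted p = 0.000264). Gdf15 averaged 5.51 ± 0.976 CPM in liver, 0.632 ± 0.586 in IWAT, 0.309 ± 0.188 in gastrocnemius and 0.220 ± 0.201 CPM in BAT. Only its step from liver to IWAT passed (3.96 ± 0.56, edgeR adjusted p = 1.07e-07). Such steps are common: 77.6% of all genes differed between the 4 tissues. Of the pairs used here for neighbours in level, 49.7% of genes differed between IWAT and liver, 33.4% between IWAT and BAT, 40.9% between BAT and gastrocnemius, 52.5% between IWAT and gastrocnemius, 47.9% between BAT and liver and 56.8% between liver and gastrocnemius.

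The co-receptor Klb (gene ID 83379, chromosome 5, 65348411 to 65386957) averaged 31.3 ± 11.3 CPM in IWAT, 20.5 ± 4.56 in BAT, 11.3 ± 1.41 in liver and 0.320 ± 0.375 CPM in gastrocnemius of CON mice. In MR mice IWAT was again highest, at 42.0 ± 18.8 CPM, and the liver mean of 17.3 ± 2.75 CPM was above the BAT mean of 15.6 ± 3.54 CPM. In CON mice IWAT, BAT and liver were not separated from their neighbours in this order (edgeR adjusted p = 0.407 and 0.505), and liver exceeded gastrocnemius by 5.41 ± 0.52 on the log2 scale (adjusted p = 5.90e-12).

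By diet, Klb in IWAT ranged over 22.9, 35.5 and 77.1 CPM (lowest, median, highest) in MR and 18.9, 29.7 and 52.1 CPM in CON. The highest MR library, MR3116, and the highest CON library, CON3106, were both among those that stood apart, and the remaining libraries overlapped. The log2 fold change was 0.55 ± 0.48 (SE; edgeR adjusted p = 0.970), and it was -0.035 without MR3116. Adipocyte markers summed to 63410 CPM in IWAT of MR3116 and to 87940 CPM in that of CON3106, the highest of their diets, with ranges of 30260 to 63410 CPM in MR and 32140 to 87940 CPM in CON. Brown adipocyte markers in IWAT summed to 1059 to 4219 CPM in MR and 122 to 1318 CPM in CON. The part of either cell type in the Klb values was not tested.

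In BAT, Klb had 12.0, 14.9 and 22.4 CPM in MR and 13.1, 21.4 and 25.5 CPM in CON. MR3109 was high and CON3115 low for their groups, and the diets overlapped. The log2 fold change was -0.30 ± 0.19 (SE; edgeR adjusted p = 0.528, 95% interval -0.73 to 0.13). In liver Klb had 12.8, 18.0 and 20.1 CPM in MR and 9.19, 11.4 and 13.4 CPM in CON. All MR livers but that of MR3102 lay above every CON liver, yet the log2 fold change of 0.43 ± 0.15 did not pass (edgeR adjusted p = 0.178). With library totals in place of TMM scaling it was 0.61 and passed (adjusted p = 0.0168), a scaling that moves the median of all liver genes to 0.19. In gastrocnemius Klb had 17 MR tags and 19 CON tags and was not tested.

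**Figure D2:**
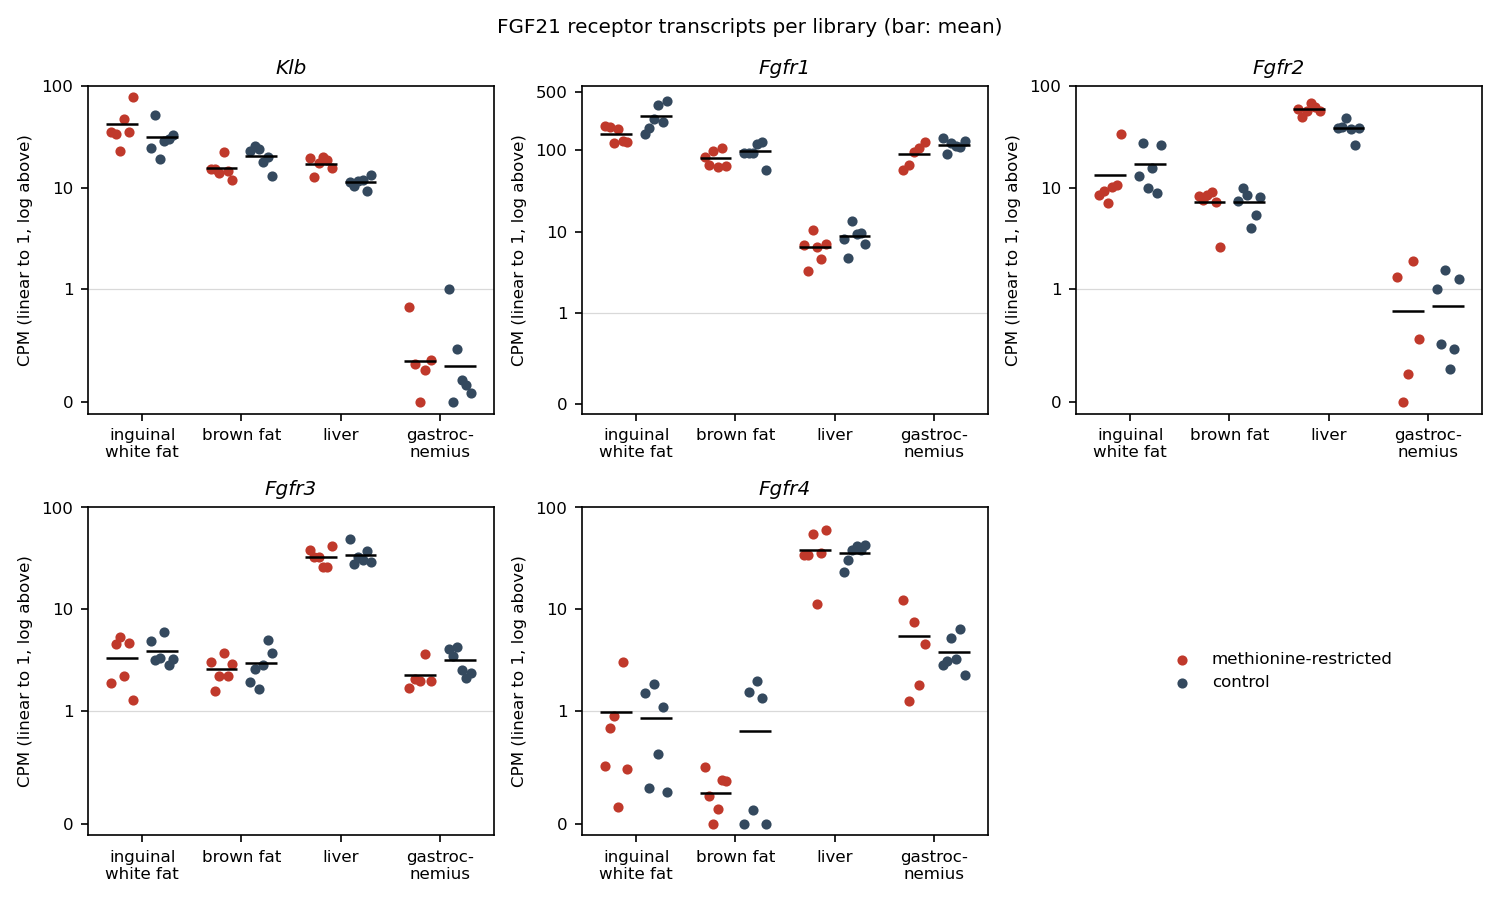
CPM of Klb and the 4 FGF receptors in each library (points; y axis linear up to 1 CPM and logarithmic above) by tissue, with MR left of CON and the group mean as a bar. Fgfr1 is high in both fats and muscle and low in liver, where Fgfr2 separates the diets narrowly, at 49.1 CPM or more in MR and 48.0 CPM or less in CON. The CPM are per library total, a scaling that moves the median log2 fold change of all liver genes to 0.19.

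Fgfr1 (gene ID 14182, chromosome 8, 25518759 to 25575718) was the receptor with the most tags in both fat depots and in muscle. The annotated genes Gm31288 and Gm16159 overlap it, and the sources used here do not say whether counting used strand. CON means were 257 ± 95.4 CPM in IWAT, 116 ± 17.9 in gastrocnemius, 95.2 ± 23.9 in BAT and 8.72 ± 2.92 CPM in liver (SD, n = 6 each). IWAT exceeded gastrocnemius (edgeR adjusted p = 0.0245) and BAT exceeded liver (2.94 ± 0.26 on the log2 scale, adjusted p = 1.57e-12), whereas gastrocnemius and BAT were not separated (adjusted p = 0.0804). The step from IWAT to gastrocnemius was 0.65 on the log2 scale, fell to 0.37 without the libraries that stood apart (edgeR adjusted p = 0.186) and to 0.39 without CON3115, and was also lost without the libraries of MR3101, CON3106, CON3112 or MR3116. Over the alternatives other than leaving out each replicate, this step ran from 0.37 to 1.15.

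In IWAT, Fgfr1 had 120.5, 155 and 194 CPM in MR and 157, 227 and 397 CPM in CON. All MR libraries lay below the CON median, 3 of them below every CON library, and the ranges overlapped. The log2 fold change was -0.62 ± 0.29 (SE) with an edgeR adjusted p of 0.577. Stromal markers (Col1a1, Col3a1, Dcn, Pdgfra and Lum) summed to 870 to 1228 CPM in MR IWAT and 1615 to 5362 CPM in CON IWAT, with none of the 5 at 0 in either diet and no overlap. Of single genes tested in IWAT, 1.53% were lower in MR with no overlap on such CPM. The CPM are per library total, a scaling that moves the median log2 fold change of all IWAT genes to -0.13. The part of the stromal markers in the Fgfr1 values was not tested. In BAT the values were 62.2, 72.9 and 104.7 CPM in MR and 55.8, 92.0 and 124 CPM in CON, with overlapping ranges and a log2 fold change of -0.17 ± 0.18 (edgeR adjusted p = 0.737). In liver Fgfr1 had 3.27, 6.67 and 10.4 CPM in MR and 4.77, 8.75 and 13.5 CPM in CON (-0.61 ± 0.25, edgeR adjusted p = 0.268). In gastrocnemius it had 55.9 to 123 CPM in MR and 87.4 to 140 CPM in CON (-0.29 ± 0.27, edgeR adjusted p = 0.971). The point estimate was below 0 in all 4 tissues, and no tissue passed.

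Fgfr2 (gene ID 14183, chromosome 7, 130162451 to 130266808), whose forms bind FGFs of epithelium and mesenchyme, was highest in liver. It had 49.1, 58.6 and 68.3 CPM in MR livers and 26.3, 38.9 and 48.0 CPM in CON livers. On these CPM, which are per library total, every MR liver lay above every CON liver. That was true of 4.36% of the genes tested in liver, and the reverse of 0.438%. Library totals move the median log2 fold change of all liver genes to 0.19. With TMM scaling the log2 fold change of Fgfr2 in liver was 0.45 ± 0.14 (SE), and the edgeR adjusted p of 0.109 did not pass. With library totals it was 0.62 and passed (adjusted p = 0.0131). In IWAT Fgfr2 had 7.06, 9.76 and 33.8 CPM in MR and 8.94, 14.3 and 27.8 CPM in CON, and its highest MR value was in MR3116. Its log2 fold change was -0.16 ± 0.61 in IWAT (edgeR adjusted p = 1.00) and 0.060 ± 0.28 in BAT (adjusted p = 0.951). The BAT levels were 2.63 to 9.14 CPM in MR and 4.01 to 9.99 CPM in CON. In gastrocnemius it had 40 MR tags and 51 CON tags and a log2 fold change of 0.073 ± 0.72, which changed sign with scaling. Across tissues of CON mice, Fgfr2 in liver exceeded IWAT (edgeR adjusted p = 0.000801), and BAT exceeded gastrocnemius (adjusted p = 1.25e-05), while IWAT and BAT did not differ beyond their spread (adjusted p = 0.0684).

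Fgfr3 (gene ID 14184, chromosome 5, 33721724 to 33737068), known as a brake on bone growth, averaged 32.9 ± 6.42 CPM in MR livers and 34.2 ± 7.91 CPM in CON livers. The other 3 tissues had group means of 2.25 to 3.90 CPM, and its log2 fold change ran from -0.35 in gastrocnemius to -0.029 in BAT, with edgeR adjusted p-values of 0.464 or more. Fgfr4 (gene ID 14186, chromosome 13, 55152818 to 55168759), the hepatocyte receptor of the gut hormone FGF15, averaged 38.4 ± 17.4 CPM in MR livers and 35.8 ± 7.44 CPM in CON livers, with a log2 fold change of -0.11 ± 0.28 (edgeR adjusted p = 0.901). The CPM are per library total and the fold change uses TMM scaling; with library totals it was 0.10, the sign of the means. The MR livers held both the lowest Fgfr4 value, 11.3 CPM, and the highest, 60.2 CPM. In gastrocnemius Fgfr4 had 1.26 to 12.4 CPM in MR and 2.27 to 6.31 CPM in CON, and the highest was in MR3101, whose muscle markers were low (0.89 ± 0.65, edgeR adjusted p = 0.892). Without MR3101 the log2 fold change was 0.021. Between tissues of CON mice, liver exceeded gastrocnemius in Fgfr4 and gastrocnemius exceeded IWAT (edgeR adjusted p = 2.94e-06 and 0.000701), with IWAT and BAT at 0.935 ± 0.636 and 0.824 ± 0.881 CPM not separated. Fgfr3 stepped down only between liver and IWAT (edgeR adjusted p = 5.71e-16). In fat Fgfr4 had too few tags to test by diet, 34 in MR and 36 in CON IWAT, and 13 in MR and 50 in CON BAT.

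No receptor gene was called by diet in IWAT, BAT or gastrocnemius, where 0.027%, 1.11% and 0% of genes tested were called in either direction. This held under every alternative scaling, filter and omission of a library that was run. In gastrocnemius, 0 of 11225 genes were called by edgeR, 709 had an unadjusted p under 0.05 and DESeq2 called 0. The plot of diet differences shows the intervals, the widest of which belong to Fgfr2 in IWAT and to Fgfr2 and Fgfr4 in gastrocnemius. On simulated counts with the same depth and spread, the edgeR test recovered 0% of 2-fold changes in IWAT, 28.9% in BAT, 79.1% in liver and 1.06% in gastrocnemius.

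**Figure D3:**
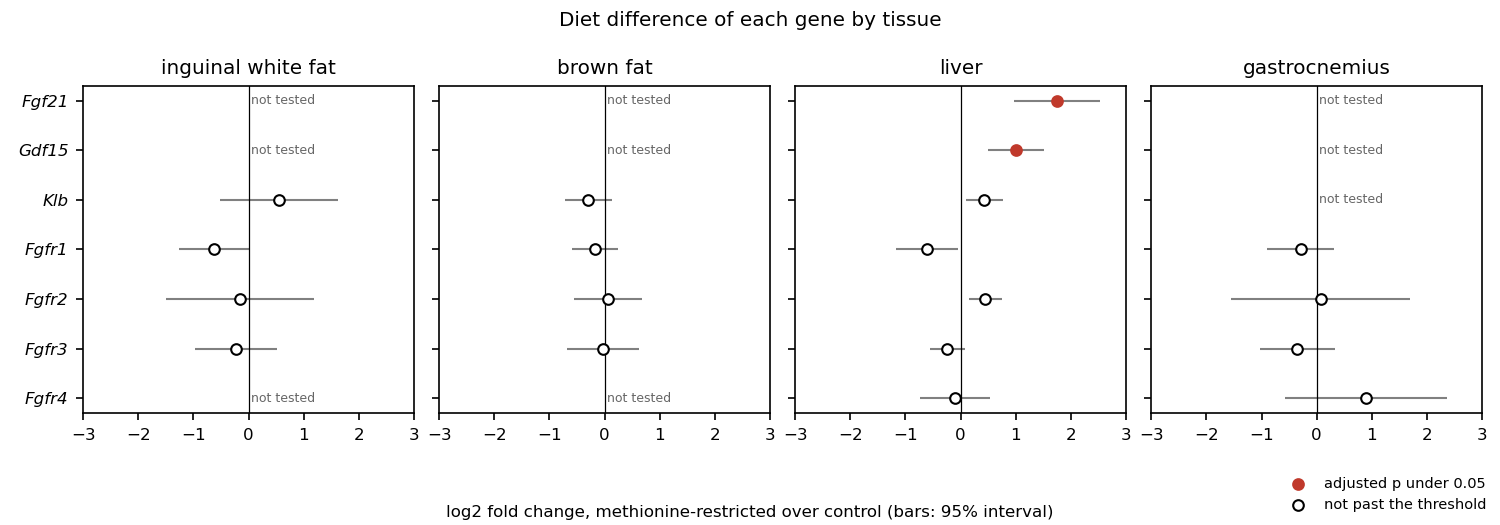
Log2 fold change of each gene, MR over CON, with its 95% interval, by tissue (x axis, log2 scale); filled points passed an adjusted p of 0.05, open points did not, and genes that failed the filter are written as not tested. Fgf21 at 1.76 and Gdf15 at 1.01 in liver are the filled points.

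The 4 receptors were present in different proportions by tissue. Since each transcript gives 1 tag, shares of tags were compared without a length correction; differences in how well tags map were not corrected. Of all FGF receptor tags, Fgfr1 made up a median of 92.9% over the 12 IWAT libraries, 89.9% in BAT and 93.4% in gastrocnemius, but 5.90% in liver. In liver Fgfr2 had a median share of 36.7%, Fgfr4 29.4% and Fgfr3 25.2%. The shares of Fgfr1 in IWAT were 77.5 to 94.7% in MR and 85.5 to 94.5% in CON, and the lowest was in MR3116. In liver Fgfr2 made up 34.4 to 60.8% in MR and 23.7 to 38.4% in CON.

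**Figure D4:**
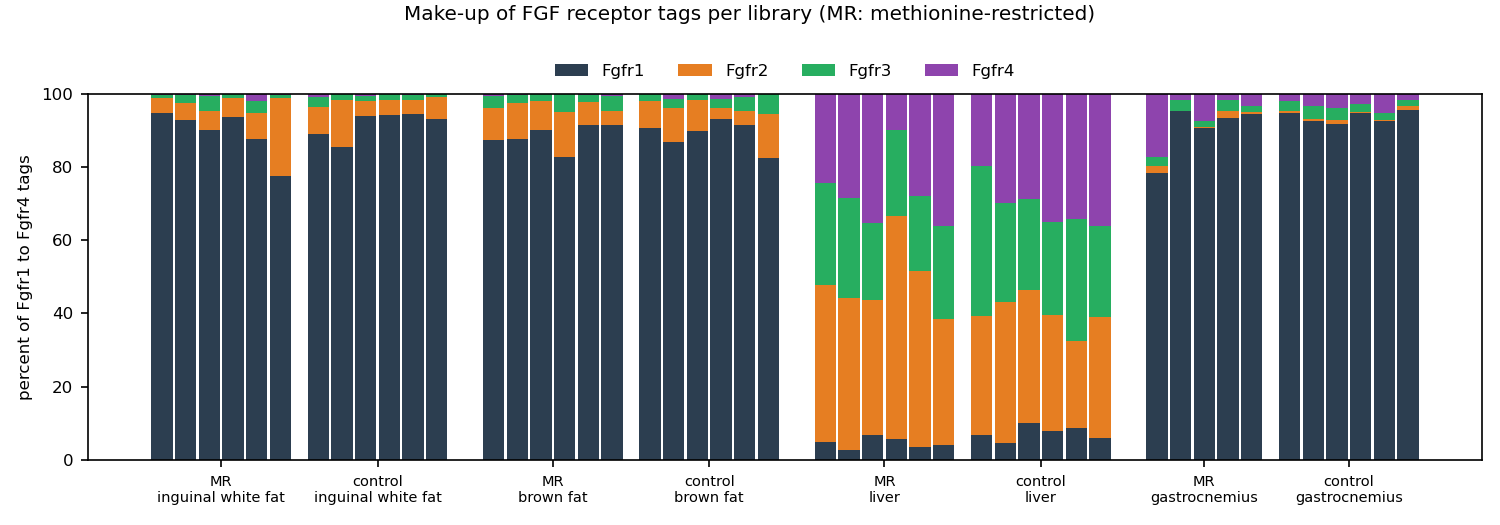
Share of Fgfr1, Fgfr2, Fgfr3 and Fgfr4 in the tags of all 4 genes (y axis, percent) for each library (1 bar each), with MR left of CON in each tissue. Fgfr1 holds 77.5% or more in fat and muscle and 10.2% or less in liver.

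As a measure of co-receptor against receptor, Klb tags per 100 Fgfr1 tags were counted in each library, a ratio chosen after the values were seen and given with no test. In IWAT it was 18.0, 22.5 and 62.8 in MR (lowest, median, highest) and 8.03, 11.1 and 28.3 in CON. In BAT it was 14.0, 18.9 and 36.0 in MR and 15.3, 24.2 and 27.7 in CON. In liver it was 168, 296 and 402 in MR and 85.9, 133 and 218 in CON. In IWAT and liver the lowest, median and highest ratios were each higher in MR, and in BAT only the highest was. The highest IWAT ratios were in MR3116 and CON3106, whose libraries stood apart. The next MR ratio in IWAT was 27.4, in MR3113, below the highest in CON. In BAT the highest MR ratio was in MR3109, and the next was 23.15, in MR3102, also below the highest in CON. The diets overlapped in all 3 tissues.

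Set side by side in the same animals, the hormone in liver and the receptor in fat did not order the mice of both diets alike. Within MR, MR3116 and MR3109 were highest and MR3104 lowest both for liver Fgf21 and for Klb in IWAT. Between them, MR3102, MR3113 and MR3101 had 21.9, 19.65 and 14.5 CPM of liver Fgf21. Their Klb in IWAT ran the other way, at 34.1, 35.4 and 35.5 CPM. MR3116 had the highest liver Fgf21, 25.9 CPM, with the highest Klb in IWAT, 77.1 CPM, and the lowest in BAT, 12.0 CPM. Its IWAT library was among those that stood apart, so its place in IWAT is uncertain. MR3109, next in liver Fgf21 at 23.6 CPM, had 46.8 CPM of Klb in IWAT and 22.4 CPM in BAT. MR3104, with the lowest MR liver Fgf21 (11.2 CPM), also had the lowest MR Klb and Fgfr1 in IWAT, at 22.9 and 120.5 CPM. CON3107, whose liver Fgf21 of 13.2 CPM was the highest of its diet, had the lowest CON Klb in IWAT, 18.9 CPM, and 23.8 CPM in BAT. MR3101 was in the CON range for liver Gdf15 (5.31 CPM) and above every CON liver for Fgf21 (14.5 CPM). Liver Fgf21 differs by diet, so no correlation pooled over the diets is given.

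The wider pathway was described through lists of genes, each by counts and medians. Of 16 other targets of the integrated stress response, 11 were tested in liver, and 5 were called higher and none lower, where 1.05% of all genes were called higher. Asns, asparagine synthetase, had 235 ± 42.1 CPM in MR livers and 20.6 ± 15.5 CPM in CON livers (SD), with a log2 fold change of 3.37 ± 0.41 (SE; edgeR adjusted p = 0.000372). Aldh1l2, a mitochondrial folate enzyme, had 3.15 ± 0.33, and Psat1, of serine synthesis, had 2.99 ± 0.37. Vldlr, a lipoprotein receptor, had 1.77 ± 0.34 and Pck2, the mitochondrial PEP carboxykinase, 1.19 ± 0.15, with edgeR adjusted p-values of at most 0.0103 for these 4. The median of the 11 was 1.19, against 0.010 over all genes. Mthfd2, which sits beside Fgf21 in size at 1.75 ± 0.45, did not pass (edgeR adjusted p = 0.0578). In IWAT, BAT and gastrocnemius edgeR within the tissue called 0 of the 10, 8 and 12 tested members, and 1, 4 and 0 had an unadjusted p under 0.05. Over all genes tested, 8.78% in IWAT, 13.6% in BAT and 6.32% in gastrocnemius had such a p. The joint fit called 1 of these targets in IWAT, and DESeq2 called 1 in BAT, the amino acid transporter gene Slc3a2 (adjusted p = 0.0438).

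**Figure D5:**
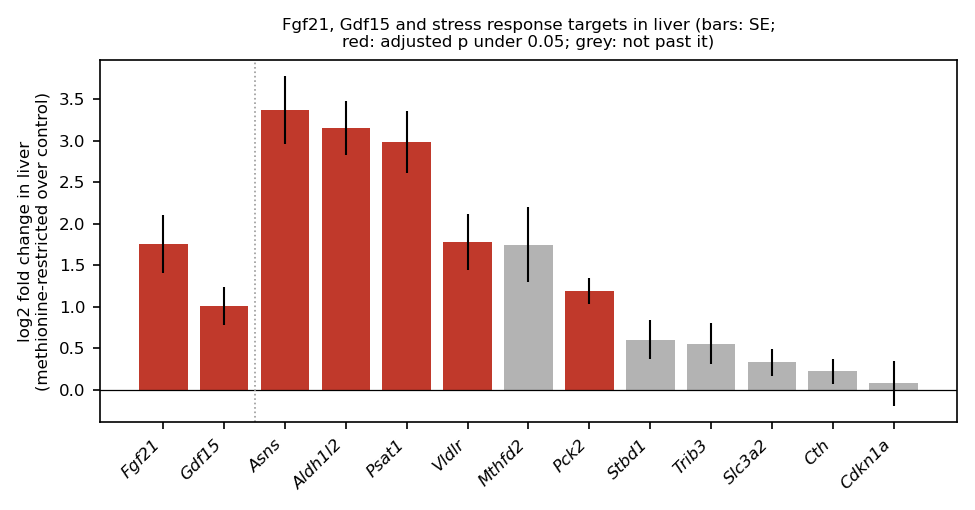
Log2 fold change in liver, MR over CON (y axis), of Fgf21 and Gdf15 (left of the dotted line) and of the 11 tested targets of the integrated stress response, with SE as bars; red columns passed an adjusted p of 0.05 and grey ones did not. Asns at 3.37, Aldh1l2 at 3.15 and Psat1 at 2.99 exceed Fgf21 at 1.76 and Gdf15 at 1.01.

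Of 17 transcription regulators of Fgf21 or Gdf15, 0 were called in any tissue by edgeR within the tissue, and 3 in IWAT, 5 in BAT, 3 in liver and 1 in gastrocnemius had an unadjusted p under 0.05. Over all genes tested, 8.78% in IWAT, 13.6% in BAT, 14.5% in liver and 6.32% in gastrocnemius had such a p. DESeq2 called 1 of the regulators in IWAT, 2 in BAT and 2 in liver, and the joint edgeR fit of all libraries called Ppargc1a and Ppara in IWAT (edgeR adjusted p = 0.000499 and 0.0184). On leaving out 1 library, up to 1 was called in BAT (without MR3109 or CON3115) and up to 2 in liver (without MR3109, CON3112 or CON3115). Those nearest to it were Nr1d1, the clock repressor REV-ERBα, at -0.61 ± 0.16 in liver (edgeR adjusted p = 0.0545), and Ppara, the fasting-activated nuclear receptor, at -0.45 ± 0.12 in liver (adjusted p = 0.0650). Ppargc1a, a coactivator of mitochondrial genes, was at 0.77 ± 0.18 in BAT (edgeR adjusted p = 0.0512). Atf4 itself had 0.021 ± 0.17 in liver, and Eif2ak4, the gene of GCN2, had 0.074 ± 0.13.

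Of 7 further genes, co-factors of FGF21 or GDF15 and other endocrine FGFs (Kl, Fgfrl1, Gfral, Ret, Fap, Fgf15 and Fgf23), few passed the filter. The number tested was 2 in IWAT, 1 in BAT, 1 in liver and 3 in gastrocnemius. Of those tested, 0 were called in any tissue by edgeR within the tissue. An unadjusted p under 0.05 was seen for 1, Ret in IWAT, as for 8.78% of all genes tested in IWAT. Gfral and Fgf15 had no tag in any of the 47 libraries. Ret, the GDF15 signalling partner, was read in IWAT at 3.57 ± 1.49 CPM in MR and 11.9 ± 6.24 CPM in CON (SD, n = 6 each), a log2 fold change of -1.63 ± 0.36 (SE; edgeR adjusted p = 0.136). Ret was called lower in IWAT by DESeq2 (adjusted p = 0.00284) and in the joint fit.

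Downstream of the receptors, 1 of 17 tested signal transduction genes was called in BAT, where 0.537% of genes were called lower. Gab1, an adaptor protein, fell there to 0.821 ± 0.139 CPM in MR, against 2.03 ± 0.410 CPM in CON (-1.19 ± 0.22, edgeR adjusted p = 0.0213), a call that was lost without MR3102, MR3104, CON3103, CON3112 or CON3114 (edgeR adjusted p at most 0.0724). Of 12 ERK early targets and feedback inhibitors tested in BAT, 1 was called, where 0.575% of genes were called higher. Dusp4, a phosphatase of ERK, rose to 22.5 ± 10.01 CPM in MR, against 8.77 ± 1.58 CPM in CON (1.47 ± 0.25, edgeR adjusted p = 0.0120). Dusp6, another ERK phosphatase, had 0.95 ± 0.22 (edgeR adjusted p = 0.0548). DESeq2 called 2 of these 12, and so did edgeR without CON3107. In IWAT, liver and gastrocnemius edgeR within the tissue called 0 genes of either list, with an unadjusted p under 0.05 for 2, 5 and 1 of them. Over all genes tested, 8.78% in IWAT, 14.5% in liver and 6.32% in gastrocnemius had such a p. Ier3, an ERK early target, was called higher in IWAT by DESeq2 (adjusted p = 0.00303) and in the joint fit. With library totals, 2 of the 16 signal transduction genes tested in liver were called, 1 of them the kinase gene Braf (edgeR adjusted p = 0.0279). That scaling called 627 of all 10969 liver genes tested and moved their median log2 fold change to 0.19.

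Of 8 fat genes reported to rise with FGF21 in mouse fat, 3 were called higher in BAT and none lower, where 0.575% of BAT genes were called higher. The list shares Ucp1, Cidea, Ppargc1a and Elovl3 with the brown adipocyte markers summed above. It was chosen with earlier results of these data known, and the part of FGF21 in these differences was not tested. Bmp8b, a thermogenic BMP ligand, had 5.26 ± 2.56 CPM in MR BAT and 0.666 ± 0.341 CPM in CON BAT (3.09 ± 0.41, edgeR adjusted p = 0.00308). Elovl3, an elongase of long-chain fatty acids, had 1.43 ± 0.25 (edgeR adjusted p = 0.0131), and Dio2, which activates thyroid hormone, had 1.31 ± 0.25 (adjusted p = 0.0226) and lost its call without CON3107. In the joint fit of all libraries Bmp8b kept its call, and Elovl3, Dio2, Dusp4 and Gab1 lost theirs (edgeR adjusted p = 0.263, 0.164, 0.299 and 0.495). The median of the 8 was 0.82 in BAT, against 0.0015 over all genes tested there. In IWAT the median of the 7 tested was 2.08, against -0.017 over all genes. There edgeR within the tissue called 0 of the 7, and 5 had an unadjusted p under 0.05, as did 8.78% of all genes tested. DESeq2 and the joint fit each called 5 of the 7, and edgeR without CON3114 called 3. Ucp1, the uncoupling protein, had 3.15 ± 0.64 in IWAT (edgeR adjusted p = 0.107, and 7.11e-05 with DESeq2). Not every gene of the list was higher in MR. Adipoq had -0.83 ± 0.44 in IWAT (edgeR adjusted p = 0.681), and Slc2a1 had -0.076 ± 0.29 in BAT (edgeR adjusted p = 0.938).

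The genes whose log2 CPM followed each gene most closely over all 47 libraries were ranked by Pearson's r among 13541 genes, as a description, since the libraries fall into 4 tissues and share animals. For Fgf21 they were Fgl1 (0.933), Sardh (0.932), Apoc2 (0.925), Tmem97 (0.924) and Pemt (0.923). For Gdf15 the list ran from Iqgap2 (0.957) through Lsr, Gata4 and Slc39a4 to Igfbp2 (0.947). Klb went with Nadk (0.969), Bag4, Pck1 and Tspan12 (0.951), and Fgfr1 with Svep1 (0.958), Dpep1, Sparcl1, Fcrls and Mbp (0.953).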

How the data were processed

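Per the labels, tags were made with the SOLiD SAGE kit from 7 to 12 ng of total RNA per library and fragments mapped uniquely to mouse RefSeq genes were kept; the submitters' processing notes name mm10, GRCm38.p1 and DESeq. The sources used here name neither the aligner nor the DESeq version. The deposited values used here are the authors' raw counts per gene symbol, without normalization; the authors' deposited normalized signal was not used. Each tissue had its own fit with edgeR 4.0.16 in R 4.3.3: filterByExpr at its defaults (minimum count 10), TMM factors, the quasi-likelihood F test for diet and Benjamini-Hochberg adjustment over all genes tested, with a threshold of 0.05. The SE was derived from F and the log2 fold change (its size over the root of F). Genes that fail the filter are given by their tags, with no test. Tissue differences and the interaction used 1 fit of all 47 libraries in 8 groups. CPM were computed over library totals, and the limit for a gene with no tag is 3 counts of the total. Within a tissue each library is a separate mouse, per the labels' numbers, and the labels give no batch of library preparation or sequencing. No libraries held identical counts, and none was removed.

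Alternatives were DESeq2 1.42.0, upper-quartile factors, library totals, no filter, leaving out libraries that stood apart (median Spearman correlation under 0.8 with their tissue), leaving out each replicate, and a block for the animal. Tissues share animals by their numbers in the labels; the mean correlation of deviations between libraries of an animal was -0.076 to 0.063 over 6 tissue pairs. Named list genes were those called and otherwise at most 3 with the smallest p per tissue. Added after their values were seen were Atf4, Eif2ak4 and Mthfd2 in liver, Adipoq in IWAT and Slc2a1 in BAT. In the ranking by likeness, 1 gene named by its rule (the 5 highest r) is not reported here. The 7 genes and all lists were chosen with earlier results of these data known. The test was checked on simulated counts with 200 changed genes. Promoter sequences and positions are from RefSeq (GRCm38.p6), and tag sequences from GENCODE vM1 transcripts, so the tag counted by the authors may differ.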

Additional observations from a re-analysis of the deposited data

Results flagged for a closer look

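Of 55 groups of libraries tested, 8 held a library far from the others of its group, and about 1 in 20 groups does so by chance. A further 1 group had no spread and was not tested. In liver, Fgf21 was 13.2 CPM in CON3107, against 6.23 CPM in the next CON liver. In IWAT, Fgfr2 was 33.8 CPM in MR3116, whose library stands apart from its tissue, against 10.6 CPM in the next MR library. Fgfr4 in IWAT was 3.01 CPM in MR3113, next to 0.953 CPM. In BAT, MR3109 was highest for Klb, at 22.4 CPM against 15.1 CPM, and for Gdf15, at 0.397 CPM (3 tags) against 0.147 CPM. Also in BAT, Fgfr2 was lowest in MR3116, at 2.63 CPM, below 7.14 CPM in the next. In gastrocnemius, Fgfr3 was 3.60 CPM in MR3109, against 2.05 CPM, and the single Fgf21 tag of CON3114 gave 0.0780 CPM, against 0 in all others.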

How the results depend on the processing

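Over all results and alternatives, 1849 values kept their direction and side of the threshold, 86 counts moved by more than 1.5 times, 39 values changed sign, 37 passed the threshold only in the alternative and 30 lost it. Genes called by diet in IWAT were 3, and 305 with DESeq2, 6 with upper-quartile factors, 67 with library totals, 0 without the libraries that stood apart and 446 in the joint fit (0 to 41 on leaving out each replicate). In BAT they were 120, 326 with DESeq2 and 41 in the joint fit (50 to 111), and in liver 248, 476 with DESeq2, 627 with library totals and 29 in the joint fit (158 to 322). Library totals split the liver calls into 548 higher and 79 lower, against 115 and 133, and moved the median of all genes to -0.13 in IWAT and 0.19 in liver. Of the 7 genes, 2 were called in liver, 4 with library totals, 0 in the joint fit and 1 to 2 on leaving out a liver; the joint fit gave Fgf21 1.74 (edgeR adjusted p = 0.181). Fat genes called in BAT were 3, 5 with DESeq2 and 1 in the joint fit (2 to 5), and in IWAT 0, 5 with DESeq2 and 5 in the joint fit (0 to 3). Genes with an interaction were 71, 41 with the animal as a replicate block, 39 with no filter and 259 without the libraries that stood apart (23 to 847). Signs changed for small differences: Fgfr2 in BAT (0.060) gave -0.018 with library totals (-0.071 to 0.21 on leaving out a replicate), and Fgfr4 in liver (-0.11) gave 0.10 (-0.26 to 0.073). Fgfr2 in gastrocnemius (0.073) gave -0.070 with library totals, -0.37 without the library that stood apart and -0.015 in the joint fit (-0.37 to 0.39). On leaving out a replicate, Klb in IWAT ran from -0.035 to 0.96, Fgfr2 in IWAT from -1.11 to 0.23 and Fgfr3 in BAT from -0.16 to 0.14. Between tissues, Fgf21 in IWAT over BAT (-0.011) gave 0.090 with the block, 0.31 with library totals, 0.040 with no filter and 0.39 without the libraries that stood apart (-0.30 to 0.40), and Fgfr4 in IWAT over BAT (-0.14) gave 0.046, 0.14 and 0.15 under the block, library totals and that omission (-0.60 to 0.46). Fgfr3 in IWAT over gastrocnemius (-0.18) gave 0.32 with library totals (-0.32 to 0.016), and Klb in IWAT over BAT (0.44) gave -0.071 without the libraries that stood apart. The causes were not tested. Within a tissue no animal had both diets, so no paired test of diet could be made; the block left no interaction of the 7 genes past the threshold (Fgf21 adjusted p = 0.783). In IWAT and gastrocnemius, 11.1% and 30.7% of simulated 4-fold changes were recovered.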
